A study of Capra hircus with 6 samples.

Results

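The goat genome annotation used here held 1027 genes described as olfactory receptors, and 7 of them had at least 20 reads in total over 6 libraries of goat skin. A gene was counted when its description contained the words olfactory receptor and its most covered transcript reached that minimum. The genes were chosen by their read totals over both groups of samples, so their presence is a description and carries no test. The 7 genes are LOC108633292 (olfactory receptor 11H7-like), LOC102184170 (olfactory receptor 51E1), LOC102168685 (olfactory receptor 2AE1), LOC102184642 (olfactory receptor 1009) and 3 genes described as putative olfactory receptor 5AK3, LOC102169204, LOC108637597 and LOC102178842. Between black-coated and white-coated skin the receptor 51E1 was the one gene of the 7 whose groups did not overlap. Its level was 6.12-fold higher in white-coated skin by the ratio of means. Over all genes tested, 8.82% had groups that did not overlap, in either direction. After adjustment over all genes tested, 51E1 passed in DESeq2 but not in edgeR (edgeR adjusted p = 0.627).

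Olfactory receptors are G protein-coupled receptors and form the largest gene family of mammals. In the nose each sensory neuron expresses a single receptor, which acts through the G protein Golf (GNAL), the adenylyl cyclase ADCY3 and a cyclic nucleotide-gated channel (CNGA2, CNGA4, CNGB1). Some members of the family are also transcribed outside the nose. In human skin OR2AT4 has been described in keratinocytes and hair follicles and OR51E2 in melanocytes.

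The skin still carried its hair follicles and came from crosses between Boer and Macheng Black goats, which have a dark head and a pale body. Total RNA was depleted of ribosomal RNA and sequenced in 3 libraries from black-coated regions (black replicates 1 to 3) and 3 from white-coated regions (white replicates 4 to 6). The labels name no treatment, age, sex or body site, so coat colour cannot be told apart from site. Whether each replicate is a separate animal is not stated, so the p-values reflect only how much these samples vary, and part of that variation may be technical.

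Reads on named genes ran from 12648817 to 22085079 per library. The libraries differed in more than coat colour. The Y-linked LOC108634721 had 1, 688 and 0 reads in black replicates 1 to 3 and 934, 801 and 767 in the white libraries. Its reads thus followed coat colour in part, so sex and coat colour cannot be fully told apart. Black replicate 1 stood apart. Its summed level of 6 markers of the inner root sheath and hair shaft was 1169 CPM (counts per 1000000 reads of the scaled library), against 18612 to 25326 CPM in the other 5 libraries. Its summed level of 5 macrophage markers was 821 CPM against 118 to 299.9 CPM elsewhere. The keratinocyte keratins KRT5 and KRT14 were present in every library, at 927 CPM or more for KRT5 and 616 CPM or more for KRT14.

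Nearly the whole family was undetected at this depth. Of the 1027 genes, 967 (94.2%) had 0 reads in all 6 libraries, against 19.1% of the 25924 other named genes. A count of 0 over the 6 libraries allows a level of up to 0.0300 CPM, a limit that covers counting error only. A further 42 genes had 1 to 3 reads and 11 had 4 to 19 reads. The 7 genes above the minimum, 0.682% of the family, held 1516 of its 1640 reads (92.4%). The largest 3 of them, the receptors 11H7-like, 51E1 and 2AE1, held 81.6%. Just inside the minimum lay LOC102178842 with 24 reads and LOC108637597 with 33. Just outside lay LOC108634038 (olfactory receptor 226-like) with 11 reads, followed by LOC108635907 (2F1-like) and LOC102183723 (receptor 139) with 6 each.

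**Figure D1:**
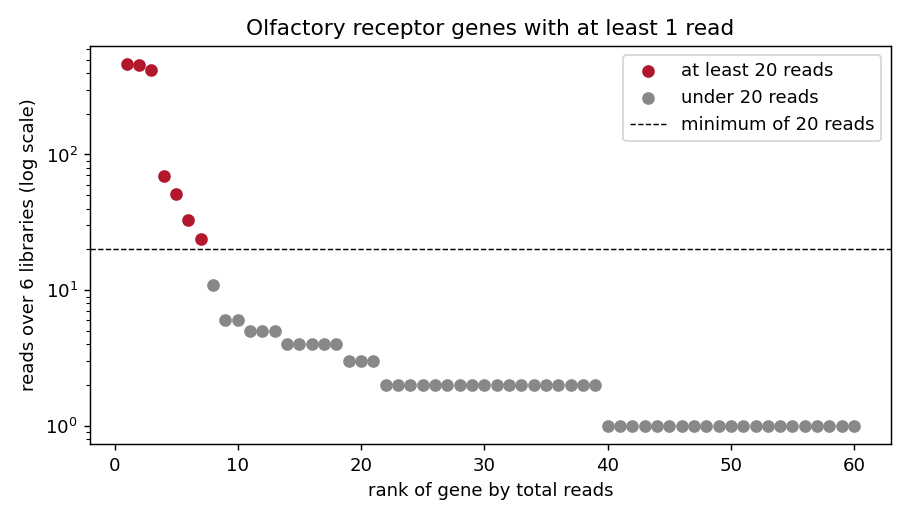
Total reads over the 6 libraries (log scale) of each olfactory receptor gene with at least 1 read, ordered by total; the dashed line is the minimum of 20 reads. The largest 3 genes stand at 420 to 463 reads, 4 at 24 to 69, and 53 lie at 11 reads or fewer.

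The receptors that reached the minimum came from different branches of the family. Class I receptors, the fish-like families numbered 51 to 56, accounted for 137 of the 1027 genes by description, and 51E1 was the one of them above the minimum. The other 136 had 7 reads together. Of the others above the minimum, 5 belong to class II families by description, and the name of receptor 1009 gives no family. All 3 genes described as 5AK3 passed, whereas the 3 described as 5AK2 had 3 reads together. The 11H family had 13 genes, and all of its 463 reads lay on LOC108633292. Of the receptors listed as known from human skin, 51E1 was the only one among the 7. That list was made with earlier results of these data known, so this match carries no test. The 3 genes described as 2AT4 had 0 reads, and the receptor 51E2 (LOC102183346) had 2. No gene of the table was described as 10G7, 51B5, 2A4 or 2A7, so these were not analysed here.

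By order of genes in the ARS1.2 assembly, in which all 1027 genes were found, 5 of the 7 lie on the same chromosome. That chromosome carries 319 of the family (31.1%), more than any other. The receptor 51E1 sits in an unbroken run of 10 olfactory receptor genes, and the other 9 had 4 reads in all. Receptor 1009 sits in a run of 5, whose other members had 7 reads in all. The 3 genes described as 5AK3 lie close together, and the span of LOC102169204 overlaps that of LOC102169497, a noncoding transcript. Receptors 11H7-like and 2AE1 have no olfactory receptor gene on either side.

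In the receptor 51E1 the groups were separate and tight. In humans OR51E1 responds to short and medium chain fatty acids and is also expressed outside the nose, for example in the prostate. Goat LOC102184170 had 19, 15 and 34 reads in black replicates 1 to 3 and 123, 161 and 104 reads in white replicates 4 to 6. These are levels of 1.34, 1.08 and 1.47 CPM in black-coated skin and of 6.99, 9.45 and 7.36 CPM in white-coated skin. Every white library lay above every black one, and the highest black level was far below the lowest white level. The means were 1.30 ± 0.202 CPM and 7.94 ± 1.32 CPM (SD, n = 3 per group). In bulk tissue, fewer cells of a type and less RNA per cell cannot be told apart.

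The log2 fold change of 51E1, black over white, was -2.60 (SE 0.33), with an unadjusted p of 9.42e-05 in edgeR's quasi-likelihood test. That p was rank 2 among 15778 genes tested. Adjusted over all genes tested it did not pass (edgeR adjusted p = 0.627), and edgeR called 0 genes in all (0.0% of those tested). At an unadjusted p under 0.05 edgeR had 536 genes, while limma-voom called 0 genes at the adjusted threshold. DESeq2 called 78 genes (0.494%), and 51E1 was one of them (DESeq2 adjusted p = 1.76e-09). With each library left out in turn, the edgeR log2 fold change stayed between -2.70 and -2.46. The gene was singled out with earlier results of these data known, so its p is not independent evidence.

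**Figure D2:**
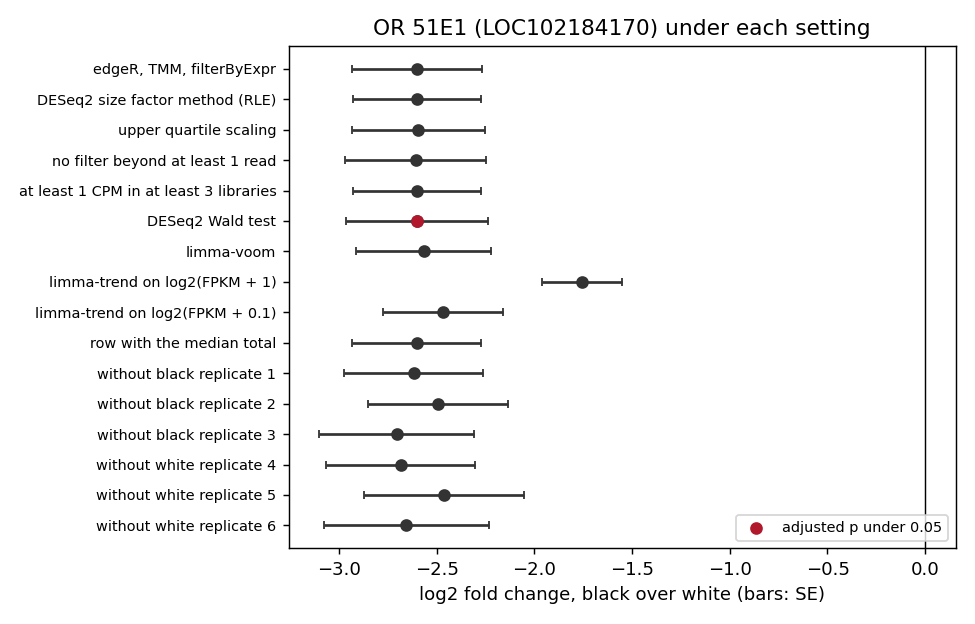
Log2 fold change of the receptor 51E1, black over white (points), with its SE (bars), in the reported fit at the top and under 15 alternatives; red marks an adjusted p under 0.05. The points run from -2.70 to -1.76, and the DESeq2 Wald test alone passed.

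Groups that did not overlap, with the lower level in black-coated skin, were found in 5.06% of all genes tested, and in either direction in 8.82%. Of the 5 receptors with enough reads to be tested, 51E1 was the one past an unadjusted p of 0.05, a threshold that 3.4% of all genes tested passed in either direction and 1.75% with the lower level in black-coated skin. In black replicate 1, which had few hair shaft transcripts and many of macrophages, the level of 51E1 lay between those of the other black libraries. Of the libraries with 688 or more Y-linked reads, black replicate 2 had 1.08 CPM of 51E1 and the white ones 6.99 CPM or more. The part of sex in the 51E1 result was not tested.

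The nearest gene outside the receptor run did not follow 51E1. TRIM68, an E3 ubiquitin ligase next to the run, had 30.9, 20.9 and 25.4 CPM in black replicates 1 to 3 and 21.9, 33.0 and 26.7 CPM in white replicates 4 to 6, so its groups overlapped. The next receptor on one side, LOC102184740 (51D1), had 1 read, and LOC102184454 (51I2-like) on the other had 0. Of 6 keratinocyte markers, 2 were past an unadjusted p of 0.05 in edgeR with the lower level in black-coated skin, and 0 passed after adjustment. These were KRT10 and KRT1, keratins of suprabasal keratinocytes. KRT10 had 90.6, 25.9 and 36.1 CPM in the black libraries and 669.5, 385 and 139 CPM in white replicates 4 to 6. KRT1 had 77.9, 6.59 and 27.3 CPM against 673, 371 and 70.4 CPM, so its groups overlapped. Among the white libraries KRT10 was highest in replicate 4, where 51E1 was lowest. The other 4 keratinocyte markers, KRT5, KRT14, DSG1 and DSG3, had log2 fold changes of -0.22, -0.02, -0.62 and 0.03, with overlapping groups. In black-coated skin, 8 of 8 melanocyte markers were past an unadjusted p of 0.05 and higher, with a summed level of 44.4, 916 and 1109 CPM against 4.46 to 6.54 CPM in white-coated skin. The summed level of 6 markers of sebaceous and sweat glands was 4182, 2357 and 1251 CPM in black replicates 1 to 3 and 668, 603 and 532 CPM in white replicates 4 to 6, so these groups too were separate. In 3 of the 6, SCD, MUCL1 and LTF, the level was higher in black-coated skin at an unadjusted p under 0.05. SOX10, shared by Schwann cells and melanocytes, also had separate groups. It had 10.3 to 20.03 CPM in black-coated and 6.75 to 9.49 CPM in white-coated skin. Summed, the 5 markers of Schwann cells and nerve overlapped, at 91.4 to 259 CPM against 66.5 to 147 CPM. Of these 5, 2 were higher in black-coated skin at an unadjusted p under 0.05 in edgeR. So were 1 of 5 macrophage markers (CD163) and 1 of 5 tested markers of T and B cells. After adjustment 0 of these passed. The part of these cell types in the 51E1 result was not tested.

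**Figure D3:**
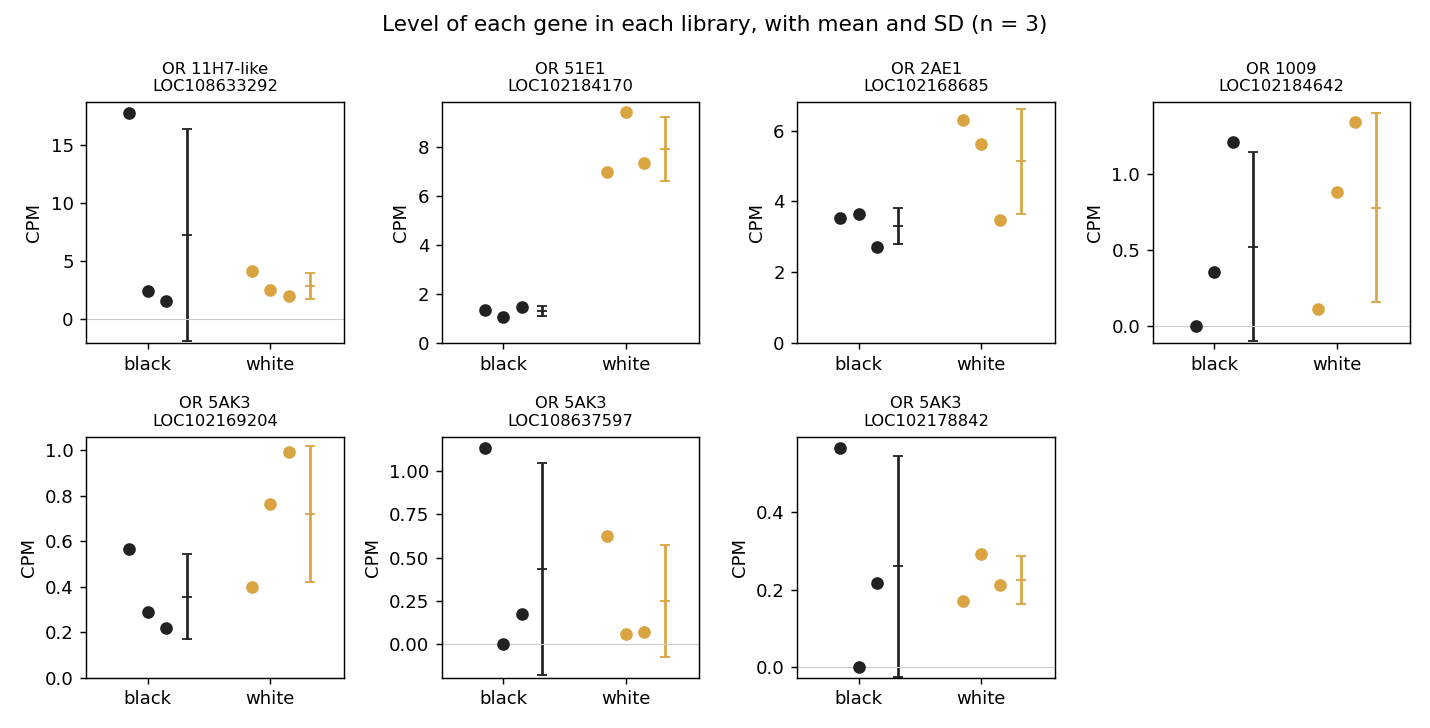
Level in CPM of each of the 7 olfactory receptor genes in every library (points), with the group mean and SD (n = 3) beside them; each panel has its own scale. The groups are separate in the panel of 51E1, and overlap in the other 6.

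The receptor 11H7-like was high in a single library. LOC108633292 had 251, 34 and 35 reads in black replicates 1 to 3, and 73, 42 and 28 in white replicates 4 to 6. These are levels of 17.8, 2.44 and 1.51 CPM in black-coated skin and of 4.15, 2.47 and 1.98 CPM in white-coated skin. Black replicate 1 stood 7.08-fold above the mean of the other 5 libraries, whose groups overlapped. The log2 fold change was 1.33 (SE 0.93, edgeR adjusted p = 0.999995), and it was -0.55 (SE 0.47) without black replicate 1. A level in black replicate 1 more than 4 times that of the next highest library, a limit chosen after the values were seen, was found in 1.0% of all genes tested.

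Some neighbours of the 11H7-like gene were also highest in black replicate 1. It lies beside SP110, and SP140 follows; both encode nuclear body proteins of immune cells. SP110 reached 28.9 CPM in black replicate 1 and 9.64 to 17.9 CPM elsewhere, and SP140 41.7 CPM against 12.9 to 26.2 CPM. The noncoding transcript LOC102173137 on its other side stood at 3.96 CPM against 0.293 to 0.779 CPM, 8.40-fold the mean of the other 5 libraries. SLC16A14, a member of the monocarboxylate transporter family 1 gene further on, stood at 14.6 CPM against 13.04 to 20.9 CPM, within the range of the others. In the same library, 5 mast cell markers summed to 325 CPM against 38.9 to 96.9 CPM elsewhere, and 6 markers of T and B cells to 89.8 CPM against 9.25 to 44.3 CPM. Markers of some other cells were highest there too. The gland markers summed to 4182 CPM against 532 to 2357 CPM. Of that sum MUCL1 held 3039 CPM, while AQP5 was lowest there, at 0.495 CPM against 7.79 to 15.1 CPM. Those of Schwann cells and nerve summed to 259 CPM against 66.5 to 147 CPM. Those of smooth muscle summed to 2652 CPM against 1045 to 1868 CPM, and those of endothelium to 939.7 CPM against 534 to 721 CPM. The summed markers of fibroblasts, keratinocytes, Merkel cells, melanocytes and the hair shaft were not highest there. The part of these cell types in the level of this receptor was not tested.

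**Figure D4:**
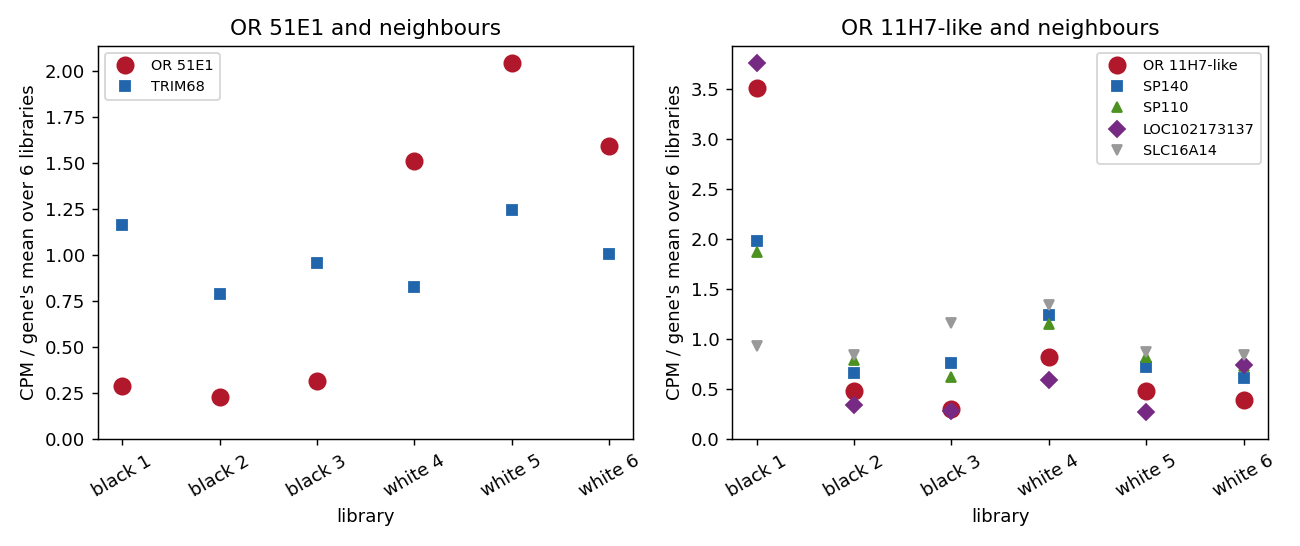
Level of the receptors 51E1 (left) and 11H7-like (right) and of neighbouring genes in each library, divided by the gene's own mean over the 6 libraries. The receptor 51E1 is raised in all 3 white libraries while TRIM68 is not; the 11H7-like gene, LOC102173137, SP140 and SP110 peak in black replicate 1 and SLC16A14 does not.

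The receptor 2AE1 had the narrowest relative range of the 7, from 2.72 to 6.31 CPM. LOC102168685 had 50, 51 and 63 reads in black replicates 1 to 3 and 111, 96 and 49 in white replicates 4 to 6. These are levels of 3.54, 3.66 and 2.72 CPM in black-coated skin and 6.31, 5.63 and 3.47 CPM in white-coated skin. White replicates 4 and 5 lay above every black library, and white replicate 6 lay within the black range. The log2 fold change was -0.64 (SE 0.36), which did not pass (edgeR adjusted p = 0.999995). Its neighbour TRIM4, another E3 ubiquitin ligase, had 23.9, 19.7 and 20.8 CPM in black replicates 1 to 3. In white replicates 4 to 6 TRIM4 had 29.1, 27.9 and 24.8 CPM, so its groups were separate. Separate groups, in either direction, were found in 8.82% of all genes tested. On the other side LOC102191297 (cytochrome P450 3A28) overlapped, with 0.142 to 1.64 CPM in black-coated and 0.822 to 1.35 CPM in white-coated skin.

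The deposited FPKM values, which are scaled by transcript length, did not record 2AE1. They list it at 0 in all 6 libraries despite its 420 reads. Of 1459 genes with 300 to 600 reads, 4 were listed at 0 FPKM in every library. Its level per length is therefore not known. For the other 6 genes, 5 of 33 pairs of a gene and a library with a read were listed at 0 FPKM.

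Compared per length, 51E1 had the highest mean FPKM over all 6 libraries among the 6 genes with FPKM values. It had 0.865, 0.695 and 1.25 FPKM in black replicates 1 to 3 and 5.33, 6.57 and 4.74 FPKM in white replicates 4 to 6. The mean level over all libraries, 3.24 FPKM, was above that of 35.8% of the genes tested, whose median was 5.76 FPKM. The 11H7-like gene followed with 0.895 FPKM, a mean that 14.9% of tested genes fell below and that includes 3.28 FPKM in black replicate 1. In the other 5 libraries it ran from 0.270 to 0.737 FPKM. The other 4 had mean levels of 0.111 to 0.395 FPKM. By means in black-coated skin alone, 11H7-like (1.31 FPKM) stood above 51E1 (0.938 FPKM), and their ranges overlapped. That order came from black replicate 1, with 3.28 FPKM for 11H7-like and 0.865 FPKM for 51E1. In black replicates 2 and 3, 51E1 was the higher, with 0.695 and 1.25 FPKM against 0.369 and 0.285 FPKM.

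The remaining 4 genes had 177 reads together and were close to the limit of detection, which is 0.130 to 0.215 CPM per library for a count of 0. Receptor 1009 (LOC102184642) had 0, 5 and 28 reads in black replicates 1 to 3 and 2, 15 and 19 in white replicates 4 to 6. Its levels varied as widely within each coat colour, from 0 to 1.21 CPM and from 0.114 to 1.35 CPM, as between them. The log2 fold change was -0.47 (SE 1.18, edgeR adjusted p = 0.999995).

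The 3 genes described as 5AK3 differed among themselves. LOC102169204 had 8, 4 and 5 reads in black-coated skin and 7, 13 and 14 in white-coated skin, with a log2 fold change of -1.02 (SE 0.62, edgeR adjusted p = 0.999995). LOC108637597 had 16, 0 and 4 reads against 11, 1 and 1. LOC102178842 had 8, 0 and 5 reads against 3, 5 and 3. LOC108637597 and LOC102178842 had too few reads for the test, and in neither did the groups separate. Genes of the same description may share reads, and LOC102169204 overlaps LOC102169497, so the split of reads among these genes is uncertain. LOC102169497 itself had 55, 7 and 23 reads in black-coated and 32, 20 and 11 in white-coated skin, highest in black replicate 1 like 2 of the 3 receptors.

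Summed over the 7 genes, the level was 24.9, 7.81 and 7.53 CPM in black replicates 1 to 3 and 18.8, 19.5 and 15.4 CPM in white replicates 4 to 6. Black replicate 1 was the highest of all libraries and the other black libraries were the lowest. The makeup of the sum also differed. The 11H7-like gene held 71.3% of the reads of the 7 genes in black replicate 1 and 12.6% to 31.2% in the other libraries. The receptor 51E1 held 5.40% to 19.5% in the black libraries and 37.3% to 48.3% in the white ones. Without the 11H7-like gene the sum ran from 5.38 to 7.15 CPM in black-coated and from 13.5 to 17.1 CPM in white-coated skin. The ratio of group means, black over white, was 0.749 with all 7 genes, 0.411 without 11H7-like and 1.21 without 51E1.

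**Figure D5:**
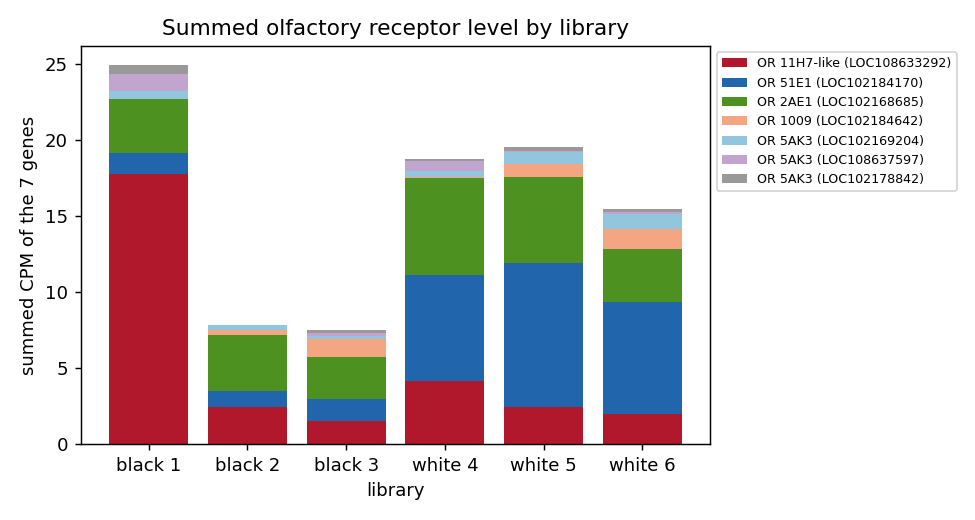
Summed CPM of the 7 olfactory receptor genes in each library, stacked by gene. Black replicate 1 reaches 24.9 CPM, of which 17.8 CPM is the 11H7-like gene; the white libraries reach 15.4 to 19.5 CPM, of which 6.99 to 9.45 CPM is 51E1.

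The signalling genes that serve olfactory receptors in the nose were present in part. Of 8 markers of olfactory neurons, OMP, CNGA4 and GNG13 had 0 reads, and CNGA2, RTP1 and STOML3 had 1, 1 and 5. OMP is the marker protein of mature olfactory neurons, and RTP1 carries receptors to the cell surface. GNAL, the Golf subunit, was found at 1.22 to 7.505 CPM and ADCY3 at 23.9 to 36.7 CPM. Both are also used by other cells, as is GNAS, the stimulatory G protein subunit closest to GNAL, at 537 to 1069 CPM.

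Of 39 genes listed for olfactory signalling and receptor gene control, 30 had enough reads to be tested and 0 passed in either direction in edgeR after adjustment over all genes. At an unadjusted p under 0.05, 1 of the 30 had a lower level in black-coated skin and 0 a higher one, which is near the 3.4% of all genes tested. That gene was ATF5, a transcription factor that acts downstream of receptor choice in olfactory neurons. It had 31.4, 31.5 and 33.1 CPM in black replicates 1 to 3 and 49.3, 37.7 and 46.9 CPM in white replicates 4 to 6, with separate groups (log2 fold change -0.48, SE 0.17, edgeR adjusted p = 0.999995). The groups were also separate in REEP1 (7.51 CPM in black-coated and 5.25 CPM in white-coated skin by means) and PRKACA (72.3 and 65.1 CPM), neither past an unadjusted p of 0.05. Separate groups, in either direction, were found in 8.82% of all genes tested. Of the listed genes with too few reads for the test, CNGB1 (9 reads) and SLC24A4 had separate groups too. The median log2 fold change of the 30 genes was 0.11, and that of all genes tested was 0.02. LHX2 and EBF1, transcription factors that bind olfactory receptor enhancers and also serve the hair follicle and other tissues, had log2 fold changes of -0.26 (SE 0.32) and 0.11 (SE 0.23). SLC24A4, an ion exchanger of olfactory neurons that pigment cells also use, was left out of the test by the filter on low counts, with 2, 42 and 100 reads in black replicates 1 to 3 and 1, 0 and 0 in white replicates 4 to 6.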

How the data were processed

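For 6 libraries the authors deposited FPKM (fragments per transcript length and depth) and read counts of transcripts, per the file headers. Bowtie2 2.0.6, HISAT2 and Cufflinks appear in the submitters' processing notes, with no role stated. Counting program, build and strand setting: not given in the sources used here. Sense and antisense reads at overlapping genes therefore cannot be separated. Of 53266 rows, 189 without a gene name (at most 0.0675% of a library) and 1770 of transfer RNA (at most 4.67e-04%) were left out. Each gene was represented by its most covered row, and FPKM was summed over a gene's rows. Counts were tested with edgeR 4.0.16 (R 4.3.3): filterByExpr, TMM, robust quasi-likelihood, Benjamini-Hochberg over 15778 genes, calls at an adjusted p of 0.05. CPM used library totals times TMM factors. The biological coefficient of variation was 37.3%. DESeq2 1.42.0 and limma 3.58.1 were alternatives. The test was tested on simulated data. Named were all 7 members, some markers, some neighbours in ARS1.2 (gene order only) and every olfactory signalling gene past an unadjusted p of 0.05. Some markers past that p are counted but not named. Members and lists were chosen with earlier results of these data known.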

Additional observations from a re-analysis of the deposited data

How the results depend on the processing

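Over all genes tested, the number called was 0 in edgeR, 78 in DESeq2, and 0 to 16 with each library left out in turn (16 without black replicate 1, 6 without black replicate 2, 1 without white replicate 4); these counts do not show which genes. The receptor 51E1 was lower in black-coated skin under all 15 alternatives, with log2 fold changes from -2.70 to -1.76, the latter on log2(FPKM + 1), a scale that understates changes of low genes. It passed in DESeq2 alone (-2.60, adjusted p = 1.76e-09), and over the edgeR and limma settings the adjusted p ran from 0.0762 (without black replicate 1) to 0.9999. With libraries left out it ran from -2.70 to -2.46, and 1 receptor was past an unadjusted p of 0.05 each time. The 11H7-like gene ran from -0.55 to 1.81 and turned without black replicate 1; it was 0.40 in limma-voom, 0.42 on log2(FPKM + 1) and 0.63 on log2(FPKM + 0.1). Receptor 1009 (LOC102184642) ran from -2.06 to 0.14, and turned on log2(FPKM + 1) (0.17) and log2(FPKM + 0.1) (0.41); the cause was not tested. The receptor 2AE1 ran from -0.86 to -0.46 and LOC102169204 from -1.50 to -0.72 with libraries left out, and the latter was -0.38 on log2(FPKM + 1); neither turned under any alternative that gave a value. A minimum of 100 reads left 3 receptors in place of 7. The summed level, black over white, was 0.749, ran from 0.428 (without black replicate 1) to 0.913 with libraries left out, and was 0.411 without LOC108633292, an alternative added after the data were seen. No paired analysis was possible because the groups share no replicate number. Depth limits the 4 receptors with 24 to 69 reads, of which 2 had too few to be tested.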

Other observations

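Reads of the 53 receptors below the minimum were scattered. Of these genes 34 had reads in a single library, 6 had reads in 3 or more, and 0 had reads in every library. Black replicate 1 had 42 of their 124 reads, on 22 genes, although it had the fewest reads on named genes. The other libraries had 8 to 26 reads on 7 to 16 genes. Their summed level was 2.97 CPM in black replicate 1 and 0.573 to 1.14 CPM elsewhere. All 6 reads of LOC102183723 (receptor 139) fell in that library.

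Other receptor families of the chemical senses also had few reads. Of 27 taste receptor genes 2 had at least 20 reads. TAS1R3, the shared subunit of the sweet and umami receptors, had 40, 20 and 34 reads in black replicates 1 to 3 and 32, 34 and 34 in white replicates 4 to 6. TAS1R2, its partner in the sweet receptor, had 0, 0 and 9 reads against 1, 5 and 7. Of 10 vomeronasal and 14 trace amine-associated receptor genes, 0 reached the minimum, with at most 6 and 2 reads.

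The pseudogene LOC102178291, beside the genes described as 5AK3, had 49, 1 and 13 reads in black replicates 1 to 3 and 36, 28 and 31 in white replicates 4 to 6.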
